A study of Homo sapiens with 6 samples.

Results

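The mature arms of the miR-126 precursor, hsa-miR-126-3p and hsa-miR-126-5p (miR-126-3p and miR-126-5p below), were followed on miRNA arrays of Panc-1 cells. They were selected by probe name, and each had a single spot, which makes 2 of the 2565 miRNA probes of an array. Panc-1 is an established cell line from a human pancreatic ductal adenocarcinoma, so the results hold for a single line. Control cells had TGF-β at 0 ng/mL and treated cells at 10 ng/mL, both over 72 h, and the total RNA of each group was on 3 arrays. The study used TGF-β to induce the epithelial–mesenchymal transition (EMT). The labels do not say whether the replicates were separate cultures, so p-values measure only the spread between these arrays. Each group had a slide of its own, and a slide effect cannot be told apart from one of treatment.

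A miRNA is cut from a hairpin precursor, and either strand of the stem can be loaded into the silencing complex, where bases 2 to 8 (the seed) pair with target RNAs. miR-126 is known for its abundance in endothelial cells, where the 3p arm represses inhibitors of the response to vascular growth factors, such as SPRED1 and PIK3R2. It is described as lying in an intron of EGFL7, a gene for a secreted protein of blood vessels, and in several carcinomas its level is lower than in normal tissue.

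In the RefSeq annotation of GRCh38.p14, MIR126 lies on chromosome 9 from 136670602 to 136670686 on the plus strand. This is inside the interval of EGFL7 (136658856 to 136672678), 11746 and 7686 bp downstream of the 2 start sites listed for that gene. Exon positions were not used here, and the array files carry no coordinates. The sequences of both arms are shown because the seed decides what each arm can pair with, and it is in capitals:
miR-126-3p: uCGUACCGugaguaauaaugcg
miR-126-5p: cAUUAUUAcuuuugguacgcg
In the hairpin of 85 bases, the stretches that become the arms are in capitals, 5p first:
MIR126: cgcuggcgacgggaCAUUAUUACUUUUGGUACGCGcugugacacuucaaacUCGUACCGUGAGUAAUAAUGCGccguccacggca
The 3p arm occupies 136670653 to 136670674 and the 5p arm 136670616 to 136670636. In the predicted fold of lowest energy, 18 of the 30 base pairs of the hairpin joined the arms to each other, and 16 bases separated them. The seeds of the arms differ, and among the 2370 mature miRNAs in the RefSeq table no other miRNA had bases 2 to 8, or bases 2 to 7, of either arm. Neither arm therefore has a seed family in that table whose values could be set beside its own.

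Both arms were detected on all 6 arrays, where detection means a signal above the mean of the blank spots by more than 2 SD. In control cells the miR-126-3p spot gave 141, 149 and 178 intensity units (replicates 1, 2 and 3 in this order, here and below), compared with 115, 132 and 138 units after TGF-β. Blank spots averaged 18.2 to 21.3 units per array, and the 3p signals were 146 to 215 of their SDs higher. The 3p arm was thus far above the blank spots in every sample, though on TGF-β replicate 1 its signal was below the local background around the spot, and its signals in the TGF-β group were all below those in the control group. In control cells the miR-126-5p spot gave 31.9, 33.9 and 37.8 units, compared with 35.3, 33.1 and 31.7 units after TGF-β. They exceeded the blank mean by 16.0 to 27.0 blank SDs. The 5p arm was thus clear of the detection limits of 19.5 to 22.8 units, and its groups overlapped. Among the miRNA spots of an array, the 3p spot was at percentile 92.3 to 93.6 of brightness and the 5p spot at percentile 76.1 to 81.2. Brightness also depends on the probe, so these percentiles do not rank amounts of RNA.

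**Figure D1:**
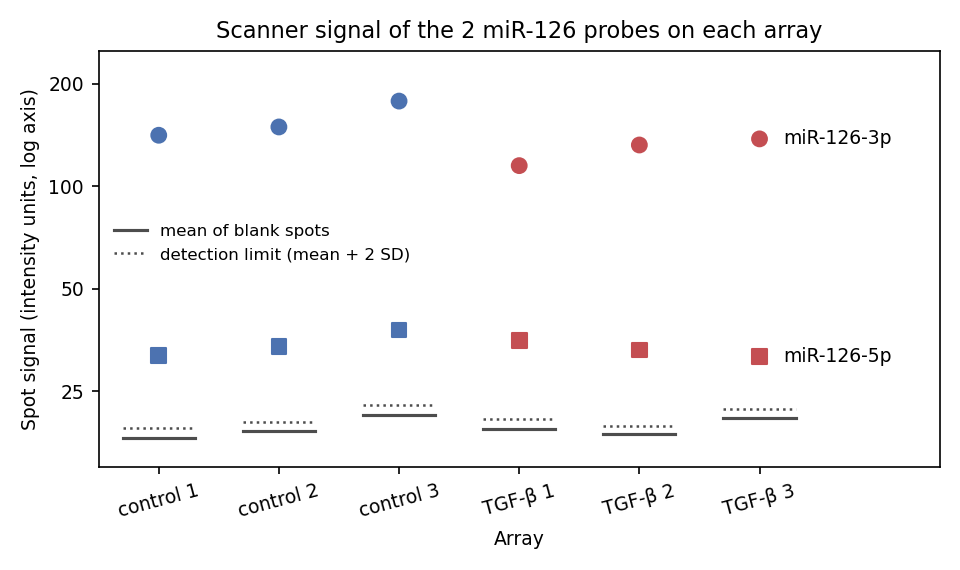
Signal of the miR-126-3p (circles) and miR-126-5p (squares) spots in intensity units on a log axis, for each of the 3 control (blue) and 3 TGF-β (red) arrays. Solid lines are the mean of the blank spots and dotted lines the detection limit; every point lies above the limit, and the 3p signal was 115 to 178 units against 31.7 to 37.8 for the 5p arm.

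The 3p probe gave more signal than the 5p probe on every array. After subtraction of the blank mean, the ratio of the 3p to the 5p signal was 8.97, 8.84 and 9.48 in control cells, compared with 6.03, 7.95 and 10.8 after TGF-β. The mean ratio was 9.10 ± 0.339 (SD, n = 3) without TGF-β, compared with 8.25 ± 2.39 (SD, n = 3) with it. The ratio was nearly the same on the control arrays and spread widely on the TGF-β arrays, of which 2 were below and 1 was above all control arrays. These are ratios of probe signals, which hold the unequal affinity of the probes, and not ratios of RNA amounts. The change of the ratio between groups is free of that affinity and is tested below.

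To ask whether the arms responded to TGF-β, blank-subtracted signals were brought to a common distribution (quantile normalization over miRNA probes), and their log2 values were compared with limma over 1457 miRNAs, those with detection throughout the control arrays, the TGF-β arrays or both. In control cells the normalized log2 signal of miR-126-3p was 7.07, 7.11 and 7.12, compared with 6.75, 6.72 and 6.85 after TGF-β. All TGF-β arrays were below all control arrays, and the gap between the group means was larger than the spread within either group, with means of 7.10 ± 0.025 (SD, n = 3) without TGF-β and 6.78 ± 0.068 (SD, n = 3) with it. miR-126-3p was lower in TGF-β-treated cells by a log2 fold change of -0.32 (standard error 0.077, 95% interval -0.49 to -0.15, adjusted p = 0.042 from limma), a level of 0.799 times that of control cells. This call held in 3 of 13 alternative settings and in 0 of 6 fits with an array left out, which are given below. The exact permutation test gave p = 0.1 (2-sided), the smallest that 3 arrays against 3 allow. Of the miRNAs tested, 3.98% were called at an adjusted p under 0.05, 1.37% as lower and 2.61% as higher. These are 20 lower and 38 higher, and the lower count varied with the setting. There were 8 lower and 27 higher without normalization, and 12 and 37 with median or 75th percentile scaling. A floor of 5 gave 8 and 20, and limma without a trend 9 and 22. The deposited values, which are rounded and were tested over 1282 miRNAs, gave 6 and 38. In the main setting miR-126-3p was close to the edge of the calls, at rank 54 by p among 58 called miRNAs, and 147 miRNAs had a larger fall. The groups did not overlap for 18.9% of the miRNAs tested, and were apart with TGF-β lower for 10.1%. The reduction of miR-126-3p was thus small beside the range of all miRNAs, -2.09 to 1.96.

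In control cells the normalized log2 signal of miR-126-5p was 3.91, 3.99 and 3.85, compared with 4.15, 3.75 and 3.44 after TGF-β. The control arrays lay close together, while TGF-β replicate 1 was above all of them and the other TGF-β replicates were below. The log2 fold change was -0.14 (standard error 0.17, 95% interval -0.51 to 0.24, adjusted p = 0.820 from limma), and the exact permutation test gave p = 0.7 (2-sided). The interval holds the change measured for the 3p arm as well as no change. Without TGF-β replicate 3 the log2 fold change of the 5p arm was 0.037, and without TGF-β replicate 1 it was -0.32, so that single arrays set its sign and size.

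**Figure D2:**
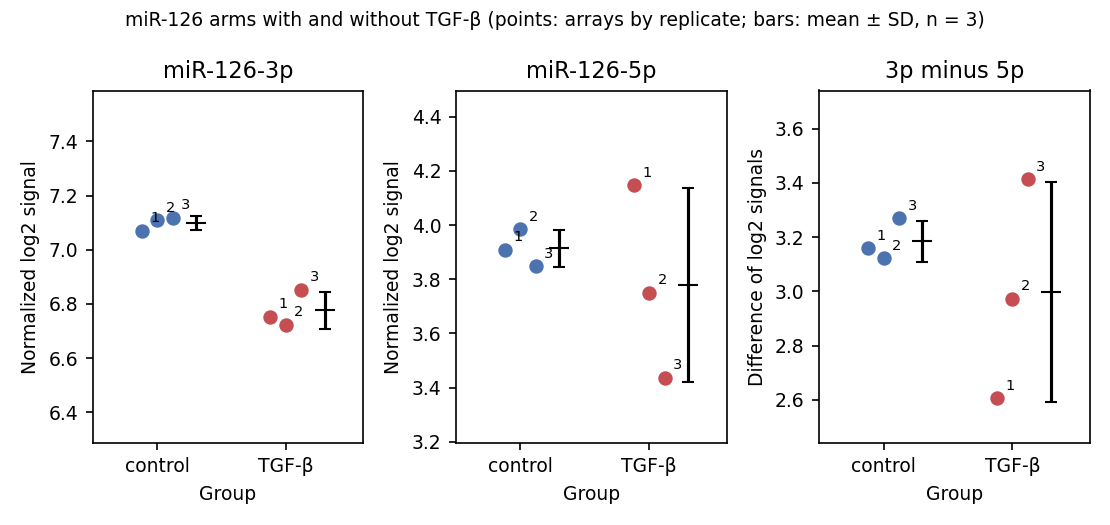
Normalized log2 signal of miR-126-3p and miR-126-5p and their difference on each array (points, numbered by replicate), with the mean and SD of 3 arrays beside them; each vertical axis spans the same number of log2 units. For the 3p arm the TGF-β arrays (6.72 to 6.85) lie below the control arrays (7.07 to 7.12), and for the 5p arm and the difference the groups overlap.

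Whether the arms changed unequally was tested on the difference of their log2 signals, 3p minus 5p, in each array. In control cells the difference was 3.16, 3.12 and 3.27, compared with 2.60, 2.97 and 3.42 after TGF-β, and the groups overlapped. The same difference was taken for each of the 382 precursors with both arms in the tested set. For miR-126 the groups differed by -0.19, TGF-β minus control (standard error 0.23, 95% interval -0.73 to 0.36, adjusted p = 0.932 from limma; exact permutation test, 2-sided p = 0.5). The call of the 3p arm and the lack of one for the 5p arm are therefore no evidence of a difference between them, and the interval leaves room for unequal changes in either direction. Across all precursors limma called 0 of 382 (0%) at an adjusted p under 0.05, while 30 had an unadjusted p under 0.05 (7.85%), compared with 0 and 26 by the methods' t-test. The groups did not overlap for 12% of the precursors, with TGF-β lower for 4.19%, and miR-126 was not among them. The quartiles of the shift over all precursors were -0.18 and 0.21, with a median of 0.0027, and 191 precursors had a larger shift than miR-126 in either direction. The sign for miR-126 rested on TGF-β replicate 1, without which the shift was 0.011.

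**Figure D3:**
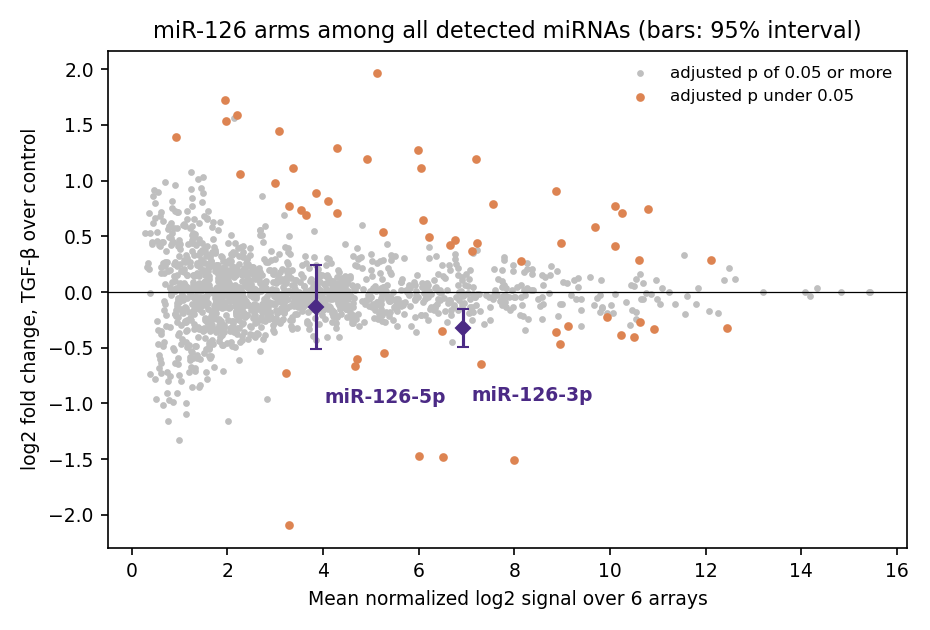
log2 fold change of TGF-β over control (vertical axis) against the mean normalized log2 signal over 6 arrays (horizontal axis) for the 1457 miRNAs tested, with the 58 called by limma in orange and the miR-126 arms as diamonds with their 95% intervals. The interval of miR-126-3p (-0.49 to -0.15) lies below 0 and that of miR-126-5p (-0.51 to 0.24) spans it.

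The reduction of miR-126-3p kept its direction in all 13 alternative settings and with each of the 6 arrays left out, but its call did not hold in most of them. Another floor, filter, test or replicate block left its log2 fold change at -0.32, so these settings could not turn the direction. Leaving out an array could hardly turn it either, as all TGF-β arrays were below all control arrays. miR-126-3p was called in 3 of the 13 settings, all of which left its value unchanged. It was called in 0 of the 6 fits with an array left out, in which the log2 fold change was -0.37 to -0.29. The adjusted p from limma was 0.0585, 0.166 and 0.102 without control replicate 1, 2 and 3, and 0.145, 0.162 and 0.0530 without TGF-β replicate 1, 2 and 3. At an unadjusted p under 0.05 it passed in 10 of the 13 settings and in all 6 fits with an array left out. The background setting moved the value most. The local background measured around the 3p spot was 138, 112 and 147 units in control cells, compared with 120, 78.0 and 116 units after TGF-β. It was 0.590 to 1.04 of the signal of the spot, and on TGF-β replicate 1 it exceeded the signal itself. Around the adjacent 5p spot it was 15.8 to 29.0 units, and on miRNA spots above 200 units a median of 0.434 to 0.990 of the signal, so that it was high where the spot was bright. Whether it holds signal of the spot itself was not tested, which limits the values that rest on it. With normexp correction by this local background, the log2 fold change was -0.096 for the 3p arm (adjusted p = 0.987 from limma) and 0.029 for the 5p arm (adjusted p = 0.987 from limma).

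The values deposited by the authors, which are blank-subtracted and scaled by array, were 507, 562 and 528 for miR-126-3p in control cells, compared with 398, 542 and 458 after TGF-β. In these values TGF-β replicate 2 lay between the control arrays, and the ratio of the means was 0.875. The scaling of the deposited values raised the median log2 fold change of all miRNAs to 0.11. Relative to that median the change of miR-126-3p was -0.31, compared with -0.31 relative to the median in the main setting, and that of miR-126-5p was -0.13, compared with -0.12. The scale factor of TGF-β replicate 2 was 4.78, the largest of the 6, where the other arrays had 3.37 to 4.31. The deposited values of miR-126-5p were 56, 64 and 56 in control cells, compared with 66, 68 and 43 after TGF-β, and their group means were nearly equal.

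**Figure D4:**
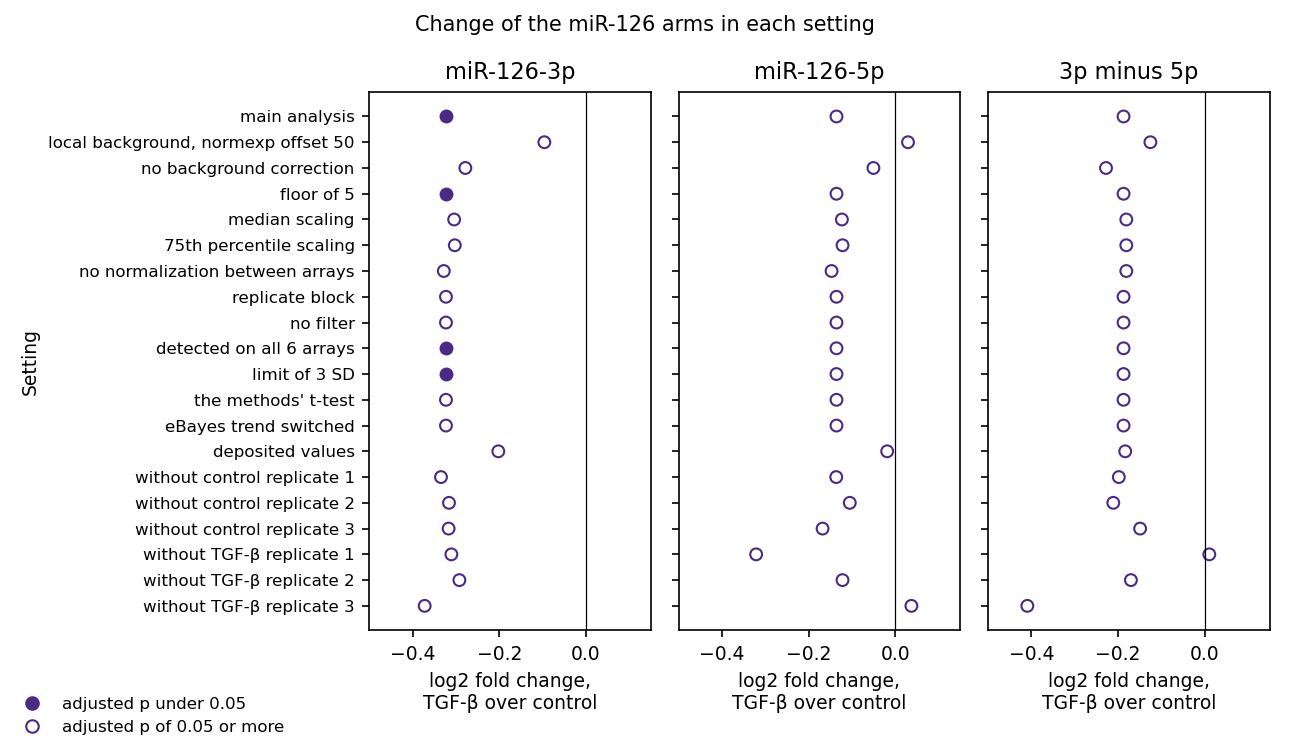
log2 fold change of TGF-β over control (horizontal axes) for miR-126-3p, miR-126-5p and their difference in the main setting, 13 alternatives and 6 fits with an array left out; filled points have an adjusted p under 0.05. The 3p arm lies below 0 in every setting but is filled in the main setting and 3 alternatives, whereas the 5p arm crosses 0 with the local background (0.029) and without TGF-β replicate 3 (0.037).

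The arms did not follow each other over the arrays. The correlation of their normalized log2 signals over the 6 arrays was 0.147, and 560 of the 1281 other miRNAs detected on all arrays were closer to the 3p arm than the 5p arm was. The miRNAs whose pattern was most like that of miR-126-3p were miR-4456 (Pearson r = 0.990), miR-133b (0.974) and miR-6723-5p (0.973). Their log2 fold changes were -0.48, -1.48 and -0.43, and since the arrays split by treatment in miR-126-3p, a high likeness to it includes that step. The closest to miR-126-5p were miR-1224-3p (0.977), miR-7106-3p (0.958) and miR-34c-3p (0.951). These correlations describe 6 arrays on 2 slides and the best of many miRNAs, and were given no test.

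Sequence shared with other miRNAs was short for the 3p arm and longer for the 5p arm. Of the 2565 probes, 2253 matched a mature sequence in the RefSeq table by name. The longest stretch that miR-126-3p shared with any of the others was 7 bases, in 6 miRNAs. Of these, miR-6869-5p and miR-3929 were detected on 6 arrays, with 82.4 to 109 and 21.1 to 24.7 units, and miR-6818-5p on 5, with 19.0 to 23.6 units, while the other 3 were detected on none. The log2 fold change of miR-6869-5p was 0.11 (adjusted p = 0.732 from limma). miR-126-5p shared 10 bases, from its position 5 to 14, with 7 miRNAs of the array, which were miR-603 and members of the miR-548 family, a large family of repeat-derived miRNAs. This stretch is shown in capitals because it is where RNA of these miRNAs could meet the 5p probe:
miR-126-5p: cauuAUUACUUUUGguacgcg
The probes of these 7 miRNAs had signals of 17.0 to 23.0 units, and none was detected on more than 1 array. On the same arrays the 5p spot was at 31.7 to 37.8 units. The probe sequences were not used here, and hybridization of other miRNAs to the probes of the arms was not tested.

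The tested miRNAs from the genes nearest to MIR126 on chromosome 9 had log2 fold changes nearer to 0 than that of miR-126-3p. Their standard errors were 0.11 to 0.26, and the difference from miR-126-3p was not tested. The 10 nearest miRNA genes, up to 1820 kb away, gave 11 probes on the array, of which 7 were in the tested set. Of these 7, 0 were called by limma, where 3.98% of all tested miRNAs were. Their unadjusted p from limma was 0.471 to 0.855. Under 0.05 there were 0 of 7 by limma and by the methods' t-test. Of all tested miRNAs 13.7% and 13.4% were, so that 0 of 7 is near these shares. The median of the log2 fold changes of these 7 was -0.046 (from -0.13 to 0.039), compared with a median of -0.013 over all tested miRNAs. The closest was MIR6722, at a distance of 76207 bp, where the log2 fold change was -0.046 for miR-6722-5p and -0.085 for miR-6722-3p (adjusted p = 0.917 and 0.889 from limma). miR-7114-5p, from a gene 779340 bp away and with signals of 134 to 219 units, had a log2 fold change of -0.042 (limma, adjusted p = 0.929, standard error 0.11).

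Other miRNAs that lie in introns of protein-coding genes were called in both directions. In a list of such miRNAs with 50 arms on the array, 45 arms were tested, 2 were called higher by limma and 3 lower, where 2.61% and 1.37% of all tested miRNAs were, and the median log2 fold change was -0.015. The methods' t-test called 0 of these arms after adjustment, where it called 1.17% of all tested miRNAs. At an unadjusted p under 0.05 there were 14 of the 45 arms by that test and 13 by limma, where 13.4% and 13.7% of all tested miRNAs were. miR-342-5p (1.08, unadjusted p = 0.0098 from limma) and miR-224-5p (0.21) were detected throughout only on the TGF-β arrays. Both, named after their values were seen, thus entered the test through the group in which they were higher. No change of the list is read from these counts or from its median, which include them. The brightest arms were miR-103a-3p (-0.00066) and miR-107 (-0.059), from introns of PANK genes, miR-191-5p (-0.34, adjusted p = 0.0101 from limma), from DALRD3, and miR-106b-5p (-0.059), from MCM7. The other called arms, named after their values were seen, were miR-425-5p (-0.27) and miR-338-3p (-0.60), which were lower, and miR-342-3p (0.49) and miR-483-3p (1.59), which were higher. miR-483-3p was dim, with 20.1, 21.9 and 24.6 units in control cells, compared with 27.5, 26.5 and 28.9 after TGF-β. Its fold change thus rests on control signals close to the detection limits. The change of miR-126-3p was close in size to that of miR-191-5p.

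miR-126-3p is a marker of endothelial cells, and other miRNAs described in endothelial cells and blood vessel growth were read beside it. All 15 of a list were detected on all 6 arrays. Of these, 1 was called higher by limma and 2 were called lower, where 2.61% and 1.37% of all tested miRNAs were, and their median log2 fold change was 0.040. The methods' t-test called 1 of the list after adjustment, where 1.17% of all tested miRNAs were. At an unadjusted p under 0.05 there were 6 of 15 by that test and 4 by limma, where 13.4% and 13.7% of all tested miRNAs were. The brightest were miR-17-5p (0.10), a member of the miR-17-92 cluster, miR-100-5p (0.75, standard error 0.055, adjusted p = 1.03e-05 from limma), miR-10a-5p (-0.40, standard error 0.081, adjusted p = 0.0155 from limma) and miR-27b-3p (0.063). miR-10b-5p, which like miR-10a-5p comes from a HOX cluster, was the other called lower (-0.39, named after its value was seen). The called members of the list thus went in both directions.

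The markers of other cell types gave low signals. Of 6 epithelial miRNAs (the miR-200 family and miR-205), 2 were detected on all arrays, miR-200b-3p being the brightest with 24.3 to 31.0 units, followed by miR-200a-3p with 21.5 to 28.6 units. The others were detected on 0 to 3 arrays, among them miR-141-3p (named after its values were seen) on none. For a line of epithelial origin, 2 of these markers were thus above the detection limit throughout, and the others were near or below it. Of 7 blood cell miRNAs, 3 were detected on all arrays, and the brightest was miR-486-5p. It gave 35.3, 40.6 and 41.9 units in control cells, compared with 34.4, 32.6 and 35.9 after TGF-β (log2 fold change -0.41, adjusted p = 0.217 from limma). These signals overlapped between groups. Its normalized log2 signals did not, which held for 18.9% of all tested miRNAs. It was the 1 of 5 tested members below 0, beside miR-150-5p (0.25) and miR-142-3p (0.020). The remaining members, miR-451a (0.66) and miR-223-3p (0.45, named after its values were seen), were detected throughout only on the TGF-β arrays. They thus entered the test through the group in which they were higher. No change of the list is read from its median of 0.25, which includes them. The defining miRNA of red cells, miR-451a, gave 18.1 to 23.8 units. Of 4 miRNAs of smooth muscle and fibroblasts, 3 were detected on all arrays, and the brightest on average was miR-214-3p with 27.9 to 32.1 units. Next was miR-143-3p, with 19.7, 21.4 and 26.0 units in control cells, compared with 23.9, 35.3 and 26.5 after TGF-β (log2 fold change 1.57, adjusted p = 0.0919 from limma). Its spot on TGF-β replicate 2 was the brightest of this list on any array. Of the 4 tested members of the list 2 were below 0, miR-214-3p (-0.0031) and miR-199a-5p (-0.27). The remaining member, miR-145-5p (0.44), was detected throughout only on the TGF-β arrays, where it was higher. No change of the list is read from its median of 0.22, which includes this member. The summed blank-subtracted signals of the blood cell list were 33.8, 36.8 and 44.5 units in control cells, compared with 38.9, 33.9 and 33.4 after TGF-β. Those of the epithelial list were 11.3, 17.0 and 21.8, compared with 15.6, 19.6 and 15.8. For the smooth muscle and fibroblast list they were 16.0, 14.4 and 19.2, compared with 16.6, 31.5 and 20.0. Of the members tested, limma called 0 in each of these lists, and the methods' t-test likewise. Of all tested miRNAs 3.98% and 1.17% were called, and with 2 to 5 members tested counts of 0 are near these shares. At an unadjusted p under 0.05, limma gave 0 of 2 epithelial, 1 of 5 blood cell and 1 of 4 smooth muscle and fibroblast miRNAs. The share of all tested miRNAs was 13.7%. By the methods' t-test there were 0 in each list, where the share of all tested miRNAs was 13.4%. In bulk RNA, fewer cells with a miRNA and less of it per cell cannot be told apart, and the part of other cells in the miR-126 signal was not tested.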

How the data were processed

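For each of the 6 arrays (RNA labelled with Cy5, 1 colour, 3D-Gene kit) the authors deposited the median intensity of 3200 spots and of their local background, linear and not normalized. They also deposited 1 table of processed intensities, rounded to whole numbers. Its method is not given in the sources used here. It was rebuilt to within 0.500 units by subtracting the mean of the 320 blank spots (5% left out at each end) and setting the median of detected miRNAs to 25, with missing values for the same miRNAs. Here the blank mean was subtracted, values were floored at 1, quantile normalized over miRNA probes and tested with limma 3.58.1 (R 4.3.3, eBayes with trend; without trend for arm differences), with Benjamini-Hochberg adjustment. The blank mean was preferred because the local background was high where the spot was bright, and because the deposited values were rebuilt from blank spots. On spots above 200 units the local background was a median of 0.434 to 0.990 of the signal. Correlations between arrays were 0.984 to 0.992 with the blank mean and 0.627 to 0.970 with normexp (offset 50) on the local background. The offset enters the second range too, so these correlations do not compare the backgrounds alone. Spots with a scanner flag (3 miRNA spots in all) were set as missing. The hairpin was folded with RNAfold (ViennaRNA 2.7.2), with plots made by matplotlib 3.10.9 under Python 3.11.15. The procedure was tested on simulated data. The members, lists and settings were chosen with earlier results of these data known. The miRNAs named were drawn from both arms, those sharing a seed, the 10 nearest miRNA genes, the 4 brightest of each list and the 3 most like each arm, and not all of these are named. Those sharing the longest stretch with an arm, the spots next to the arms and others marked where they appear were added after the values were seen. Alternatives were the background, floor, scaling, deposited values, dim-probe filter, test, replicate block and each array left out. The number of arrays limits the precision. Repeat experiments of the study on other cells and assays were not analysed here.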

Additional observations from a re-analysis of the deposited data

How the results depend on the processing

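The log2 fold change of miR-126-3p was below 0 in all 13 alternatives, relative to the median of all miRNAs too. A change of floor, filter, test or replicate block left it at -0.32, so these alternatives could not turn its sign. It stayed past an adjusted p of 0.05 with a floor of 5, with detection on all 6 arrays and with a limit of 3 SD. It did not with the local background (-0.096), no background correction (-0.28), median scaling (-0.30), 75th percentile scaling (-0.30), no normalization (-0.33), the deposited values (-0.20), the replicate block, no filter, the methods' t-test or limma without a trend (each -0.32), where the adjusted p was 0.056 to 0.987; the cause was not tested, except that no filter raises the number of tests to 2565. With each array left out, it was -0.37 to -0.29. miR-126-5p was 0.029 with the local background and -0.32 to 0.037 with each array left out, and the arm difference -0.41 to 0.011; neither was called in any setting, and the arm difference had an unadjusted p under 0.05 in 1, no background correction (-0.23, limma, unadjusted p = 0.0279, adjusted p = 0.279). The 58 calls over all miRNAs became 0 with the local background (35 at an unadjusted p under 0.05), 28 with a floor of 5, 35 without normalization, 20 without a filter, 17 with the methods' t-test, 31 without a trend, and 26 to 51 with each array left out. The calls were 20 lower and 38 higher, compared with 7 and 28 without control replicate 2 and 8 and 18 without TGF-β replicate 2. Precursors called for an arm difference were 12 without background correction, 3 with a floor of 5, 1 without control replicate 2 and 0 in the other settings.

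Replicate numbers did not clearly pair the arrays. Deviations from the group means of same-numbered arrays, which also share their position on the slide, correlated at 0.13, 0.11 and -0.027 over 1282 miRNAs. Control replicates 1 and 2 were closest to the TGF-β array of their own number, and control replicate 3 was not, so pairing stays undecided. With the replicate block there were 61 calls, and the adjusted p was 0.0625 for miR-126-3p, 0.770 for miR-126-5p and 0.928 for the arm difference.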

Other observations

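The spots of the miR-126 arms are next to each other on the array, in block 28, row 1, columns 5 and 6. The spot on the far side of miR-126-3p, miR-195-5p, gave 236 to 293 units, and that on the far side of miR-126-5p, miR-135a-5p, gave 18.7 to 22.0 units, close to the blank spots. The spots below the arms, miR-627-5p and miR-626, gave 21.1 to 25.2 and 18.4 to 22.2 units. Bright and blank-level spots thus stood side by side around the arms, and spread of signal between spots was not tested. Between arrays at the same position on their slides, the normalized log2 signal of miR-126-3p differed (TGF-β minus control) by -0.32, -0.39 and -0.27 for replicates 1, 2 and 3, while miR-126-5p differed by 0.24, -0.23 and -0.41.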
